A study of Mus musculus with 9 samples.

Results

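Meis1, Pbx2, Pbx3, Mef2c, Eya1, Myb, Jmjd1c and Zeb2 are HOX cofactors and other genes known as targets of MLL-AF9, a fusion of the chromatin regulator MLL with AF9 that drives acute myeloid leukemia (AML). They are 8 of the 55536 genes of the deposited table and were chosen by gene name, with their levels in these libraries already known. Expression was measured by RNA-seq in 9 bulk libraries of mouse leukemia cells, and values are in TPM, a level scaled by gene length and library total. The groups, 3 libraries each, are c-kit- and c-kit+ cells of AML-WT mice (WT c-kit- and WT c-kit+ below) and c-kit+ cells of AML-IRF7-/- mice (IRF7-/- c-kit+). All 3 groups came from C57BL/6J mice and carried MLL-AF9 and GFP, delivered by the MSCV retrovirus to c-kit+ cells of WT or IRF7-/- donors. The labels give the genotype as control-GFP overexpression for both WT groups and as IRF7-/--GFP overexpression for the third. In the IRF7-/- allele a beta-geo cassette with its own promoter takes the place of part of the gene. GFP+ leukemia cells were transplanted into recipients of 6 to 8 weeks that had not been irradiated, and bone marrow was taken at day 18 and sorted by c-kit, a receptor tyrosine kinase of immature blood cells. The recipients did not carry the allele, so the allele was limited to the leukemia cells. The labels do not say whether the 3 libraries of a group came from separate mice, so p-values measure only the spread between these libraries.

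MLL fusions recruit transcription elongation and histone methylation machinery to their target genes, and HOXA9 with its cofactors is the best known group among these targets. MEIS and PBX proteins belong to the TALE homeobox class and bind DNA together with HOX proteins. MEF2C, MYB and ZEB2 bind DNA themselves, EYA1 is a phosphatase and coactivator that works with homeobox proteins, and JMJD1C belongs to the KDM3 family of JmjC-domain proteins. In AML cells that carry MLL fusions these genes are known for maintaining self-renewal or for holding back differentiation.

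The levels of Kit and Irf7 were examined first. Kit, the gene of the sorted receptor, was at 0.52, 1.19 and 3.03 TPM in WT c-kit- libraries, between 50.7 and 58.5 TPM in WT c-kit+ libraries and between 70.3 and 85.7 TPM in the libraries labelled IRF7-/- c-kit+. Irf7 was at 23.5, 22.3 and 32.3 TPM in WT c-kit- libraries, at 5.31, 3.91 and 3.36 TPM in WT c-kit+ libraries and at 12.8, 5.97 and 7.95 TPM in the labelled libraries. It was therefore higher in every library labelled as knockout than in every WT c-kit+ library (log2 difference 0.89, SE 0.27) and lower than in every WT c-kit- library (log2 difference -1.49, SE 0.27). A gene-level value can include reads from the part of Irf7 that the cassette left in place, so it does not check the deletion. The study reports that it checked IRF7 expression of the WT and IRF7-/- models by qRT-PCR and Western blot. In these libraries, every direction given below for that group rests on its label. Sums of TPM ranged from 987468 to 992231, and TPM keep no read depth, so the depth behind each value is unknown. Each library correlated best with a library of its own group (r between 0.978 and 0.984 for the closest library, 0.933 or less for any other group).

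Markers of granulocytes moved with the groups. The summed level of 10 neutrophil genes was between 6169 and 30685 TPM in WT c-kit- libraries, between 56745 and 110880 TPM in WT c-kit+ libraries and between 1604 and 2529 TPM in the labelled libraries. S100a8, S100a9, Camp and Ngp carried most of the sum and were higher in every WT c-kit+ library than in every WT c-kit- library. Mmp8 (mean 4.68 against 74.6 TPM) and Retnlg (9.91 against 53.0 TPM) were lower in every WT c-kit+ library, and the WT groups overlapped for Ly6g, Ltf, Mmp9 and Cxcr2. All 10 were at 1 TPM or more in each WT library, against 7 that were so in all 3 labelled libraries, where Cxcr2 was below 1 TPM throughout. The sum of 8 monocyte and macrophage genes was 5018 to 6214, 2235 to 2608 and 2704 to 3349 TPM in the same order. The sum of 4 mast cell and basophil genes was 19.6 to 44.6, 36.0 to 75.9 and 65.8 to 82.5 TPM. T and NK cell genes summed to at most 1.59 TPM, erythroid genes to at most 17.8 TPM, megakaryocyte genes to at most 14.6 TPM and plasmacytoid dendritic cell genes to at most 5.40 TPM. B cell genes (26.4 to 38.1 TPM) were Cd79b and little else, and stroma and endothelium genes (17.0 to 59.8 TPM) were mainly Lepr. Kit, Cd34, Cd33 and Itgam, genes that leukemia cells of this model express, summed to between 377 and 527 TPM in every library. Within this sum, Itgam was lower in every labelled library (118 to 138 TPM) than in every WT library (193 to 307 TPM), and Kit was higher. For Cd34 and Cd33 the labelled libraries overlapped those of WT c-kit+. The part of these markers in the results below was not tested. In bulk libraries, fewer cells that express a gene and less RNA per cell cannot be told apart.

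Myb and Mef2c were the most abundant of the 8 genes in WT cells. Mef2c ranked first in all 3 WT c-kit- libraries and second in all 3 WT c-kit+ libraries, but seventh in all 3 labelled libraries. Myb ranked first in all 6 c-kit+ libraries. Pbx3 ranked last in all 6 WT libraries and sixth in the labelled libraries, where Eya1 was last. The summed level of the 8 genes was 615 to 657 TPM in WT c-kit-, 755 to 826 TPM in WT c-kit+ and 835 to 862 TPM in the labelled libraries.

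**Figure D1:**
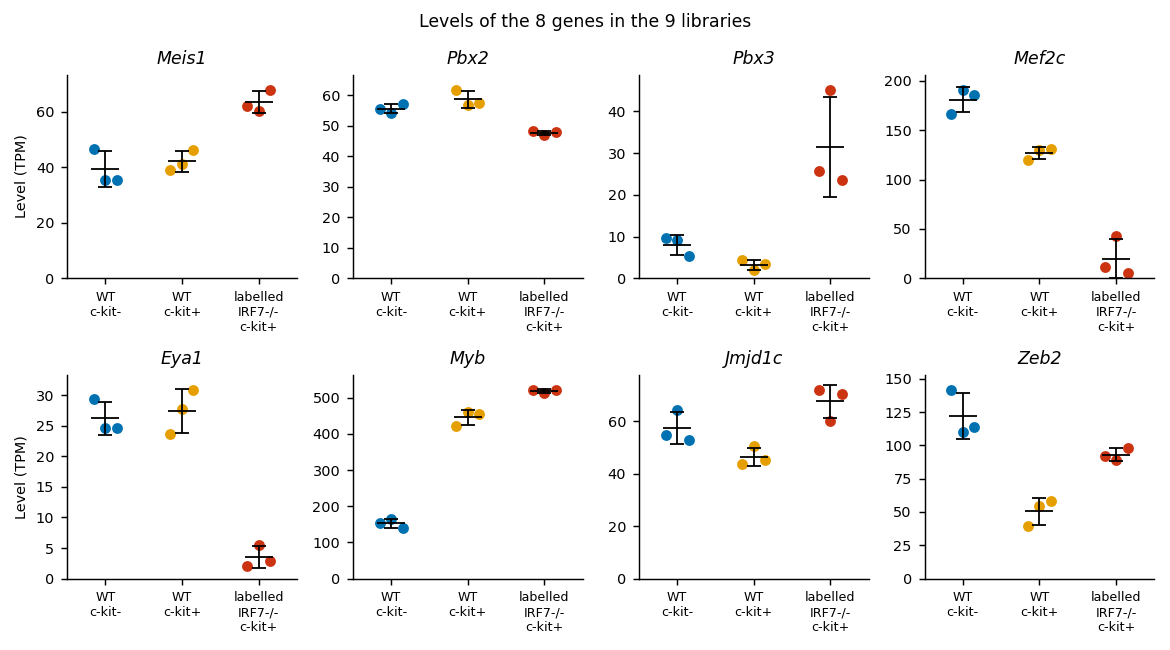
Level in TPM (y axis, from 0, a separate scale in each panel) of the 8 genes in 3 libraries of each group (dots, in the order of replicates 1 to 3), with the mean and SD (bars, n = 3). Mef2c and Eya1 lie far below both WT groups in the labelled libraries, Pbx3 lies above them, and the labelled Mef2c libraries run from 5.64 to 42.4 TPM.

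In what follows, a difference is a difference of mean log2(TPM + 1) from limma with its standard error, and a call is an adjusted p under 0.05 over all genes tested, with a stricter call that also asks for a log2 difference of at least 1. Because the 8 genes were chosen on these values, their differences and calls are a description and no p is given for them. The added pseudocount understates the change of low genes. All 8 passed the filter of 1 TPM in 3 of the 6 libraries in each comparison.

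WT c-kit+ cells were first set against WT c-kit- cells. Of the 8 genes, 1 was called higher (Myb) and 4 lower (Pbx3, Mef2c, Jmjd1c and Zeb2), and 3 passed the stricter call. Over the 13261 genes tested, 14.0% were called higher, 27.6% lower and 14.4% by the stricter rule. The median log2 difference of all genes was -0.082. The split of all calls depended on scaling, with 33.7% of calls higher as deposited and 54.0% after quantile normalization, under which 2 of the 8 genes were called higher and 3 lower. The libraries did not overlap for 5 of the 8 genes, against 54.4% of all genes.

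The libraries labelled IRF7-/- c-kit+ were next set against WT c-kit+ cells. Of the 8 genes, 5 were called higher (Meis1, Pbx3, Myb, Jmjd1c and Zeb2) and 3 lower (Pbx2, Mef2c and Eya1), and Pbx3, Mef2c and Eya1 passed the stricter call. Over 13238 genes tested, 31.9% were called higher, 16.1% lower and 11.7% by the stricter rule. The libraries overlapped for none of the 8 genes, against 59.1% of all genes without overlap. The median size of the difference was 0.73 over the 8 genes and 0.32 over all genes. The median gene was 0.12 higher in the labelled libraries, and 66.4% of all calls were higher as deposited against 51.7% with median-ratio scaling. Relative to that median the 8 differences kept their signs, and that of Myb came to 0.10.

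The labelled libraries were also set against WT c-kit- cells, a comparison in which both genotype and c-kit differ. In this comparison and in that with WT c-kit+, the leukemias also came from different infected donor cells. Genotype and the separate origin of the leukemias therefore cannot be told apart. Here 3 genes were called higher (Meis1, Pbx3 and Myb) and 4 lower (Pbx2, Mef2c, Eya1 and Zeb2), and 4 passed the stricter call. Over 13510 genes tested, 30.7% were called higher, 28.7% lower and 20.3% by the stricter rule. Jmjd1c was the only one of the 8 genes whose libraries overlapped, and 67.1% of all genes were without overlap. This comparison shares its libraries with the other two, so the values are given side by side and are not separate evidence.

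**Figure D2:**
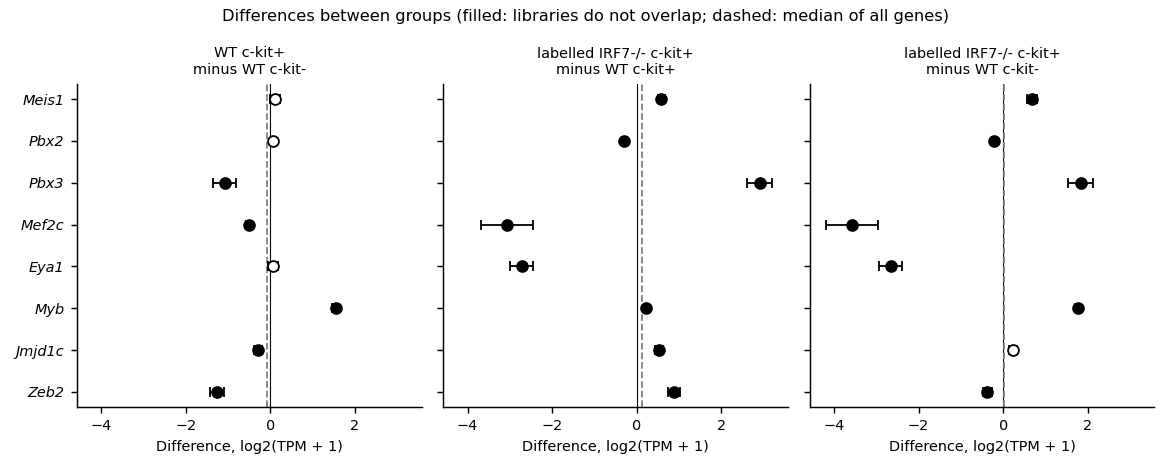
Difference in mean log2(TPM + 1) (x axis) of each of the 8 genes in the 3 comparisons, with its standard error (bars, 3 libraries against 3), filled where the libraries of the groups do not overlap. The dashed line is the median of all genes tested (-0.082, 0.12 and 0.03), and Mef2c has the widest error, 0.62, against the labelled libraries.

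Meis1, the HOX cofactor that carries HOXA9 to many of its sites, lies on chr11:18879817-19018985 (GRCm38, reverse strand). Its level was 46.7, 35.5 and 35.4 TPM in WT c-kit- libraries, 39.0, 41.0 and 46.2 TPM in WT c-kit+ libraries and 61.9, 60.3 and 67.9 TPM in the labelled libraries. The WT groups overlapped and every labelled library lay above all 6 WT libraries. The log2 difference was 0.11 (SE 0.13) between the WT groups, 0.58 (SE 0.08) for labelled against WT c-kit+ and 0.69 (SE 0.12) for labelled against WT c-kit-. Meis1 made up between 97.9% and 100% of the summed TPM of Meis1, Meis2 and Meis3 in every library, and neither paralog was above 0.85 TPM.

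Pbx2 and Pbx3 encode partners of MEIS1 and HOXA9. Pbx2 (chr17:34591266-34597400, forward strand) was at 55.6, 54.3 and 57.1 TPM in WT c-kit- libraries, 61.9, 56.8 and 57.4 TPM in WT c-kit+ libraries and 48.3, 46.8 and 47.8 TPM in the labelled libraries. The labelled libraries were the lowest 3 of the 9, with a log2 difference of -0.29 (SE 0.06) from WT c-kit+ and -0.22 (SE 0.05) from WT c-kit-, and the WT groups overlapped (0.07, SE 0.06). Pbx2 overlaps Gpsm3 on the same strand, which was at 91.2 to 122 TPM in the WT libraries and at 74.7 to 82.3 TPM in the labelled libraries, and reads from the shared stretch cannot be told apart.

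Pbx3 (chr2:34171457-34373142, reverse strand) was the member with the largest difference upward. It was at 9.55, 9.10 and 5.35 TPM in WT c-kit- libraries, 4.38, 2.08 and 3.31 TPM in WT c-kit+ libraries and 25.6, 45.2 and 23.6 TPM in the labelled libraries. The 3 groups did not overlap, and labelled library 2 stood above the other two. The mean in the labelled libraries, 31.5 ± 11.9 TPM (SD, n = 3), was 9.66 times that in WT c-kit+ (3.26 ± 1.15 TPM) and 3.93 times that in WT c-kit- (8.00 ± 2.31 TPM). On the log2 scale the labelled libraries were 2.91 (SE 0.29) above WT c-kit+ and 1.83 (SE 0.29) above WT c-kit-. WT c-kit+ was below WT c-kit- by a log2 difference of -1.08 (SE 0.28). That call was lost with no filter on low values. It was also lost when WT c-kit- replicate 1 (-0.95) or 2 (-0.98) or WT c-kit+ replicate 2 (-0.87) or 3 (-1.11) was left out.

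The PBX genes therefore differed in opposite directions. Pbx3 made up 28.5%, 43.0% and 28.2% of the summed TPM of Pbx2 to Pbx4 in the labelled libraries, against 3.13% to 6.04% in WT c-kit+ and 7.76% to 13.4% in WT c-kit-. The share of Pbx2 was 44.6% to 57.2% in the labelled libraries and 77.8% to 85.3% in the WT libraries. The summed level of these 3 genes was 92.9 ± 11.0 TPM in the labelled libraries, 69.1 ± 3.08 TPM in WT c-kit+ and 69.9 ± 1.31 TPM in WT c-kit- (SD, n = 3).

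**Figure D3:**
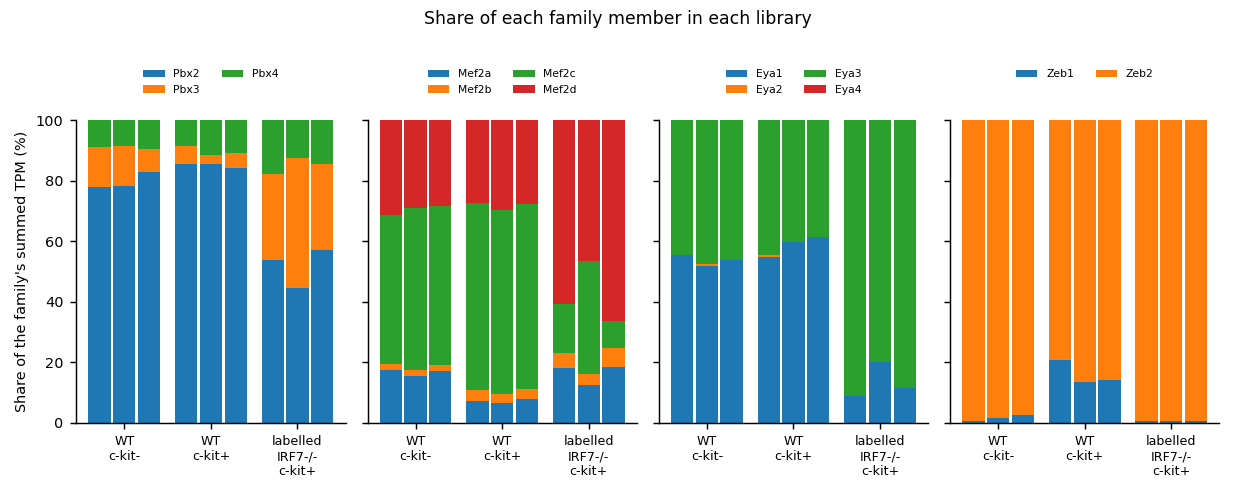
Share in percent of a family's summed TPM (y axis, stacked to 100) taken by each MEF2, EYA and ZEB gene, and by Pbx2, Pbx3 and Pbx4 of their sum, in each of the 9 libraries (bars, 3 per group, replicates 1 to 3 from left to right). Pbx3, Mef2d and Eya3 take a larger share in the labelled libraries than in any WT library, and Zeb1 has a visible share mainly in WT c-kit+. A larger share is not always a higher level. In WT c-kit-, WT c-kit+ and labelled libraries Mef2d averaged 103, 58.8 and 45.3 TPM, and Eya3 averaged 22.5, 19.1 and 22.2 TPM.

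Mef2c, which encodes a MADS-box factor active in myeloid progenitors and known for its part in MLL-driven AML, lies on chr13:83504034-83667080 (forward strand) and overlaps no other annotated gene. It was at 166, 191 and 186 TPM in WT c-kit- libraries, 120.1, 130.4 and 131 TPM in WT c-kit+ libraries and 11.2, 42.4 and 5.64 TPM in the labelled libraries. The groups did not overlap, and the highest labelled library was still below the lowest WT library. The mean was 181 ± 13.1, 127 ± 6.02 and 19.7 ± 19.8 TPM (SD, n = 3). The labelled libraries were below WT c-kit+ by a log2 difference of -3.07 (SE 0.62) and below WT c-kit- by -3.58 (SE 0.62).

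The labelled Mef2c libraries spread 7.51-fold from lowest to highest. Their SD on the log2 scale, 1.38, was at percentile 99.3 of the 10024 genes with a mean of at least 5 TPM in that group, whose median SD was 0.0961. The size of the difference from WT c-kit+ turned on this spread, at -3.83 without labelled replicate 2 and -2.48 without labelled replicate 3, and from WT c-kit- it was -4.34 and -2.98. The SD of Mef2c was at percentile 43.2 in WT c-kit- and 25.1 in WT c-kit+. Labelled library 2 had 136 of 13962 genes over 2-fold above both other libraries of its group, against 111 for library 1 and 80 for library 3. Of the 136, those in the lists used here were Mef2c, Flt3, Satb1 and the marker Cx3cr1, chosen after their values were seen. Flt3, the gene of a cytokine receptor of myeloid and lymphoid progenitors, was at 8.65, 56.9 and 7.93 TPM in the labelled libraries, and Cx3cr1, a monocyte marker, at 1.74, 4.69 and 1.23 TPM.

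In the WT libraries Mef2c had the largest share of the MEF2 total. It made up 49.3% to 53.5% of the summed TPM of Mef2a to Mef2d in WT c-kit-, 60.7% to 61.8% in WT c-kit+ and 16.1%, 37.4% and 9.15% in the labelled libraries. The MEF2 total was 349 ± 10.3, 207 ± 11.5 and 81.5 ± 27.8 TPM (SD, n = 3). Mef2c was lower in WT c-kit+ than in WT c-kit- by a log2 difference of -0.51 (SE 0.07), a call that was lost when all 9 libraries shared 1 estimate of the spread.

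Eya1 (chr1:14168954-14310235, reverse strand) was at 29.4, 24.7 and 24.6 TPM in WT c-kit- libraries, 23.6, 27.7 and 30.9 TPM in WT c-kit+ libraries and 2.07, 5.49 and 2.95 TPM in the labelled libraries. The WT groups overlapped (log2 difference 0.06, SE 0.12) and all labelled libraries lay far below both. The log2 difference was -2.72 (SE 0.27) from WT c-kit+ and -2.66 (SE 0.27) from WT c-kit-, and the mean of WT c-kit+ (27.4 ± 3.63 TPM) was 7.82 times that of the labelled libraries (3.50 ± 1.78 TPM). As with Mef2c and Pbx3, labelled library 2 was the highest of its group. Eya3 then made up 79.9% to 91.3% of the EYA total in the labelled libraries, against 38.5% to 47.7% in the WT libraries.

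Myb, which encodes a factor required for blood progenitors to proliferate and for MLL-AF9 leukemia to persist, lies on chr10:21124935-21160984 (reverse strand). It was at 153, 165 and 140.2 TPM in WT c-kit- libraries, 423, 459 and 455 TPM in WT c-kit+ libraries and 522, 513 and 522 TPM in the labelled libraries. The groups did not overlap, and the step between the c-kit fractions was far larger than that between the c-kit+ groups. WT c-kit+ was above WT c-kit- by a log2 difference of 1.54 (SE 0.08), a ratio of means of 2.92, and the labelled libraries were above WT c-kit- by 1.76 (SE 0.07). Between the c-kit+ groups the log2 difference was 0.22 (SE 0.05), a call lost under quantile normalization (0.12), under median-ratio scaling (0.10) and without labelled replicate 1 (0.22) or 3 (0.22). Myb had a small spread in the labelled libraries (SD 0.0133 on the log2 scale, percentile 1.71) and was 85.3%, 92.2% and 91.0% of the total of Myb, Mybl1 and Mybl2 on average in the 3 groups.

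Jmjd1c (chr10:67096125-67256326, forward strand) was at 54.8, 64.1 and 52.6 TPM in WT c-kit- libraries, 43.6, 50.4 and 45.0 TPM in WT c-kit+ libraries and 71.8, 60.2 and 70.4 TPM in the labelled libraries. The labelled libraries were above WT c-kit+ in every pair (log2 difference 0.53, SE 0.09) but overlapped WT c-kit- (0.24, SE 0.10, not called). Against WT c-kit- that difference was called after quantile normalization (0.32) and when WT c-kit- replicate 2 (0.32) or labelled replicate 2 (0.31) was left out. The difference between the WT groups was -0.30 (SE 0.10), and its call was lost in 7 of 13 alternatives, among them the omission of WT c-kit- replicate 1 (-0.32) or 2 (-0.21) or WT c-kit+ replicate 1 (-0.25) or 3 (-0.28). Reep3 overlaps Jmjd1c on the opposite strand, over a length that was not measured. It was at 33.9 to 38.3, 25.5 to 30.5 and 60.5 to 71.6 TPM, the same order of groups as Jmjd1c. Whether reads were counted by strand is not stated. Without strand, reads from the part that the pair shares cannot be told apart.

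Zeb2, which encodes a zinc-finger repressor best known from epithelial-to-mesenchymal transition that also acts in blood lineages, lies on chr2:44983632-45117395 (reverse strand). It was at 142, 110.2 and 114 TPM in WT c-kit- libraries, 39.1, 54.8 and 58.0 TPM in WT c-kit+ libraries and 92.0, 88.7 and 98.3 TPM in the labelled libraries. The groups did not overlap, with the labelled libraries in between. WT c-kit+ was below WT c-kit- by a log2 difference of -1.26 (SE 0.17), and the labelled libraries were above WT c-kit+ by 0.88 (SE 0.15) and below WT c-kit- by -0.38 (SE 0.10). The last call was lost with all 9 libraries in 1 fit and without labelled replicate 1 (-0.37) or 2 (-0.34). The antisense gene Zeb2os was at 40.5 to 49.7 TPM in WT c-kit- libraries, 9.67 to 11.4 TPM in WT c-kit+ libraries and 8.56 to 11.1 TPM in the labelled libraries. Its level thus differed between the c-kit fractions, but its labelled and WT c-kit+ libraries overlapped. As with Reep3, without strand the reads from the part shared by Zeb2 and Zeb2os cannot be told apart.

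Start-site windows of 300 bases (250 before to 50 after the start) came from RefSeq on GRCm38.p6 for 6 of the 8 genes, in 12 windows. None was given for Pbx3 or Eya1. They are shown because the study turns on IRF7 and because most of the 8 genes encode factors that bind DNA. The windows were searched on both strands for MEIS (TGACAG), PBX-HOX (TGATTNAT), MYB (TAACNG), MEF2 (by name), ZEB (CACCTG) and IRF (AANNGAAA) letters. Of all 32851 windows in the table, 19.2%, 3.22%, 23.3%, 3.19%, 20.2% and 23.9% held them in that order. The first windows of Mef2c, Zeb2 and Myb, the 3 genes of the 6 with the largest difference in any comparison, follow from 5′ to 3′ with each match in capitals. They lie at chr13:83503784-83504083 (forward strand), chr2:45117393-45117692 (reverse strand) and chr10:21160935-21161234 (reverse strand).
Mef2c: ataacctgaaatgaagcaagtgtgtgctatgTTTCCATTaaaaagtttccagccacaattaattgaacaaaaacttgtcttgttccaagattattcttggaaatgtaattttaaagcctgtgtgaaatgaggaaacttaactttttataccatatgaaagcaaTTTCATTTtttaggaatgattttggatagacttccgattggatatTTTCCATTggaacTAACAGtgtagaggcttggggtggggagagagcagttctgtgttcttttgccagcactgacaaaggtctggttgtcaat
Zeb2: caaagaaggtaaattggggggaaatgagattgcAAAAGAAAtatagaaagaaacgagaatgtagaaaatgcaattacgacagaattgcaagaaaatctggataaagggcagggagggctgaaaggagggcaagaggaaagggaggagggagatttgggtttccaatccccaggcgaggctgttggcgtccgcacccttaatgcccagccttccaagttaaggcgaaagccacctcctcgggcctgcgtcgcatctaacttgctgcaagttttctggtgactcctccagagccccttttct
Myb: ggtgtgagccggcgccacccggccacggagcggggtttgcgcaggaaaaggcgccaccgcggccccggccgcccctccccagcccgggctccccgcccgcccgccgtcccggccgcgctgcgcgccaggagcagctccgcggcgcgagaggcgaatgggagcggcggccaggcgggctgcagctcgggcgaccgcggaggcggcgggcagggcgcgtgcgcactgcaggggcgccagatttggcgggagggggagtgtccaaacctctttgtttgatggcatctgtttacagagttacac

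The Mef2c window held 3 IRF matches, which begin at -219, -87 and -42 from the start site, and 1 MYB match at -29. The Zeb2 window held 1 IRF match at -217, and the Myb window held none of the 6 motifs. No matches overlapped in these windows. IRF letters were found in windows of Mef2c and Zeb2 and in none of Meis1, Pbx2, Myb and Jmjd1c, while Meis1 held 1 MYB match, Pbx2 held 1 ZEB match and Jmjd1c held 1 MEIS and 1 ZEB match. The genes differed in their number of windows, with 4 for Zeb2, 3 for Mef2c, 2 for Jmjd1c and 1 for each of Meis1, Pbx2 and Myb. More windows give more room for a match, and the shares over all windows are per window. Windows 2 and 3 of Zeb2 overlap and share their matches. Neither PBX-HOX nor MEF2 letters were in any of the 12 windows. A match is a run of letters and is not a measured binding site.

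The other genes of these families and of the MLL fusion program were read from 5 lists, 53 genes in all. These lists were also chosen with earlier results of these data known, and most genes are named for their large differences. The adjusted p-values given below are therefore a description. Against WT c-kit-, 10 of the 42 tested in WT c-kit+ passed the test upward and 12 downward, beside 14.0% and 27.6% of all genes. The count of lower genes was thus near the share over all genes. After quantile normalization the split was 13 and 8. In the labelled libraries against WT c-kit+, 9 of 42 were higher and 16 lower, beside 31.9% and 16.1% of all genes, and with median-ratio scaling 5 were higher and 17 lower. Against WT c-kit-, 12 of 41 were higher and 18 lower in the labelled libraries, beside 30.7% and 28.7% of all genes, so the count of higher genes was near the share over all genes. Of the 53 genes, 10 were never tested. Meis2, Meis3, Pknox2, Eya2, Eya4 and Six4 did not exceed 0.85 TPM in any library, Six5 and Hoxa11 did not exceed 1.61 TPM, and Six2 and Dach2 were listed at 0 throughout.

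Among TALE homeobox paralogs of the HOX cofactors, none of 5 tested genes passed the limma test between the WT groups, and 0 had an unadjusted p under 0.05. Of all genes, 14.0% were called higher and 27.6% lower there. In the labelled libraries against WT c-kit+, 2 were higher and 2 lower, beside 31.9% and 16.1% of all genes. Tgif1, a repressor in TGF-beta signaling that the study followed up from these same libraries, was at 9.35 ± 1.46 against 22.0 ± 7.83 TPM (log2 difference -1.11, SE 0.24). Because the study picked Tgif1 on these values, no p is given for it. Pbx4 was at 13.7 ± 1.98 against 7.14 ± 0.769 TPM (log2 difference 0.85, limma adjusted p = 0.00245). Against WT c-kit- the log2 differences of Tgif1 and Pbx4 were -1.51 and 1.02.

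EYA1 acts together with homeobox proteins and with DACH1, and 3 of 9 genes of that list were tested in the labelled libraries against WT c-kit+. Dach1, which encodes a corepressor of the same network, was at 0.88, 0.95 and 3.25 TPM in WT c-kit-, 13.2, 9.70 and 12.1 TPM in WT c-kit+ libraries and 5.54, 5.03 and 5.14 TPM in the labelled libraries. It was higher in WT c-kit+ than in WT c-kit- (log2 difference 2.33, limma adjusted p = 0.00165) and lower in the labelled libraries than in WT c-kit+ (-1.01, limma adjusted p = 0.00124). Against WT c-kit-, Dach1 was higher in the labelled libraries (1.32). Eya3 differed by 0.20 from WT c-kit+ (limma adjusted p = 0.0394), a call lost in 9 of 13 alternatives (adjusted p up to 0.337), each single omission of a library among them.

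Of 8 MEF2, MYB, ZEB and KDM3 paralogs, 2 were higher and 3 lower in WT c-kit+ than in WT c-kit-, beside 14.0% and 27.6% of all genes. In the labelled libraries 1 was higher and 3 lower than in WT c-kit+, beside 31.9% and 16.1% of all genes. Zeb1, the paralog of Zeb2, was highest in WT c-kit+, where Zeb2 was lowest. It was at 0.87, 1.66 and 2.92 TPM in WT c-kit-, 10.2, 8.56 and 9.48 TPM in WT c-kit+ libraries and 0.54, 0.52 and 0.51 TPM in the labelled libraries, without overlap. The log2 difference was 1.95 (SE 0.27, limma adjusted p = 0.00144) between the WT groups and -2.77 (SE 0.12, limma adjusted p = 2.53e-05) between labelled and WT c-kit+. Zeb1 was 13.5% to 20.7% of the summed TPM of Zeb1 and Zeb2 in WT c-kit+ and at most 2.51% elsewhere.

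Mef2a and Mef2d passed the test between the c-kit fractions. Mef2a was at 57.7 ± 2.65 TPM in WT c-kit-, 14.6 ± 1.78 TPM in WT c-kit+ and 12.6 ± 1.29 TPM in the labelled libraries (SD, n = 3). Its log2 difference was -1.92 between the WT groups (limma adjusted p = 2.91e-05) and -2.11 between labelled and WT c-kit- (limma adjusted p = 9.11e-06). Mef2d was lower in WT c-kit+ than in WT c-kit- by a log2 difference of -0.80 and in the labelled libraries by -1.18. Mef2b, at 3.88 against 7.12 TPM, was lower in the labelled libraries than in WT c-kit+ (log2 difference -0.74, limma adjusted p = 0.00194). Mybl2, a cell-cycle paralog of Myb, was at 47.7 against 33.5 TPM (log2 difference 0.50, limma adjusted p = 0.00148).

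Among 8 coactivators and corepressors of MYB, MEF2 and ZEB2, 1 was higher and 4 lower in WT c-kit+ than in WT c-kit-, beside 14.0% and 27.6% of all genes. In the labelled libraries 0 were higher and 4 lower than in WT c-kit+ by limma, beside 31.9% and 16.1% of all genes. There 1 (Ctbp1) was higher at an unadjusted p under 0.05. The 8 genes of this list include the class IIa histone deacetylases, which bind and repress MEF2 proteins. Hdac9 was at 28.2 TPM in WT c-kit-, 5.37 TPM in WT c-kit+ and 2.70 TPM in the labelled libraries on average (log2 difference -2.20, limma adjusted p = 2.27e-05, between the WT groups and -0.79, limma adjusted p = 0.00271, between the c-kit+ groups). Hdac5 was lower in WT c-kit+ than in WT c-kit- (log2 difference -0.82) and Hdac4 higher (0.60, limma adjusted p = 0.0184), a call lost without WT c-kit- replicate 2 or WT c-kit+ replicate 1 or 3 (adjusted p 0.0581 to 0.0663 there). Hdac7 (-0.79) and Hdac4 (-0.62) were lower in the labelled libraries than in WT c-kit+. Crebbp, the gene of the MYB coactivator CBP, was lower in the labelled libraries than in WT c-kit- (-0.89, limma adjusted p = 0.000322).

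Of the 20 other MLL fusion targets, 6 of 19 tested were higher and 5 lower in WT c-kit+ than in WT c-kit-, beside 14.0% and 27.6% of all genes. The count of lower genes was near that share. In the labelled libraries 4 of 18 were higher and 6 lower than in WT c-kit+, beside 31.9% and 16.1% of all genes. Mecom, which encodes the factor EVI1, was at 14.5, 16.1 and 27.6 TPM in WT c-kit- and at 34.5, 32.9 and 33.6 TPM in WT c-kit+ and was listed at 0 in all 3 labelled libraries. Id2, an inhibitor of basic helix-loop-helix factors, was at 9.68, 19.2 and 10.9 TPM in the labelled libraries, against 94.8, 55.1 and 74.2 TPM in WT c-kit+ (log2 difference -2.43, SE 0.28, limma adjusted p = 0.000917). Cpeb2 was lower by -0.76 in the same comparison. Flt3 was lower in WT c-kit+ than in WT c-kit- (log2 difference -2.24, SE 0.40, limma adjusted p = 0.00448), as was the survival gene Bcl2 (-1.04, limma adjusted p = 0.00592), and Myc was higher (0.86, limma adjusted p = 0.00376). Satb1, a chromatin organizer, was lower in the labelled libraries than in WT c-kit- (-1.79, limma adjusted p = 0.0167), a call lost without WT c-kit- replicate 2 (-1.59) or labelled replicate 1 (-1.61), with adjusted p 0.0567 and 0.056.

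**Figure D4:**
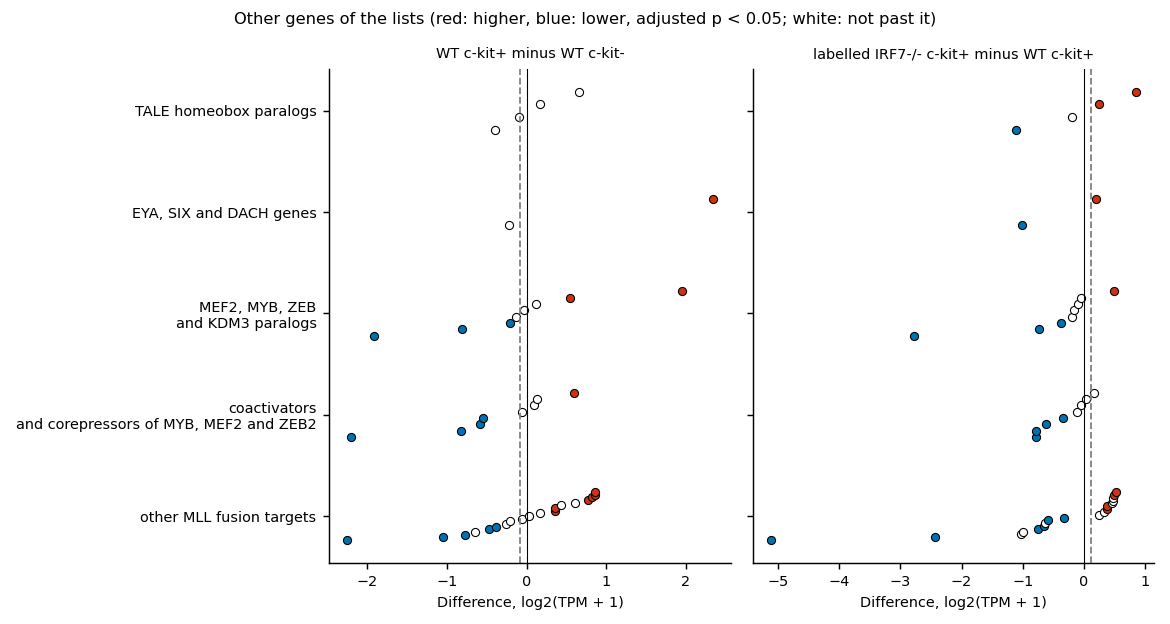
Difference in mean log2(TPM + 1) (x axis) of the tested genes reported here from the 5 lists (rows) between the WT groups and between the labelled libraries and WT c-kit+, 3 libraries against 3. Red and blue dots passed an adjusted p of 0.05, white dots did not, and the dashed line is the median of all genes (-0.082 and 0.12). The point near -5 is Mecom, listed at 0 in the labelled libraries.

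For each of the 8 genes, the genes with the most similar profile were taken by Pearson r of log2(TPM + 1) over the 9 libraries among 11019 genes. The 9 points are 3 groups of 3, so r is mainly set by the group means, and it is given as a description. The closest profile was that of Siva1 for Meis1 (r = 0.987), Faf1 for Pbx2 (0.991), Supt6 for Pbx3 (0.984), Dennd3 for Mef2c (0.984), AC158975.2 for Eya1 (0.994), Slco4a1 for Myb (0.998), Mgat4b for Jmjd1c (0.980) and Mfsd5 for Zeb2 (0.992). Next came Myg1 and Spcs3 for Meis1, Atg16l2 and AC125149.3 for Pbx2, Nelfcd and Mphosph8 for Pbx3, Ylpm1 for Mef2c, Gm35279 and Mef2b for Eya1, Pecr and AC164314.1 for Myb, Psmb6 and Ndufa9 for Jmjd1c, and Trio and Aph1a for Zeb2. Trio, at 47.8, 9.75 and 28.2 TPM on average in WT c-kit-, WT c-kit+ and the labelled libraries, followed the order of Zeb2, and Pecr, at 2.30, 16.3 and 24.4 TPM, that of Myb. Among the 8 genes themselves the closest pair was Mef2c and Eya1 (r = 0.952), followed in size by Pbx2 and Pbx3 (r = -0.910) and by Meis1 and Mef2c (r = -0.900).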

How the data were processed

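Bulk RNA from sorted mouse leukemia cells was sequenced after library preparation with the Illumina TruSeq RNA kit per the labels. The authors deposited 1 table of TPM per gene, which already holds their alignment, quantification and scaling; the aligner, its settings, the genome build and strand handling are not given in the sources used here. All 55536 gene identifiers matched GENCODE M21 on GRCm38, which gave coordinates. Columns were matched to samples by name, and 0 value columns were left unused. One column name, that of WT c-kit+ replicate 3, carries a repeated last digit but fits no other sample.

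Differences were computed with limma (version 3.58.1, R 4.3.3; lmFit, eBayes with trend) on log2(TPM + 1) after dropping genes that reached 1 TPM in fewer than 3 of the 6 libraries of a comparison, each comparison on its own 6 libraries, with Benjamini-Hochberg adjustment over all genes tested. The code was checked on simulated data with known answers. TPM are relative to the other genes of a library, so a few abundant genes lower all others. TPM keep no depth, and precision is known only from 3 libraries per group.

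The 8 genes and all lists were chosen with earlier results of these data known. Named besides the 8 genes were Irf7 and Kit, up to 3 called genes with the largest difference per list and comparison, genes not tested, and up to 3 of the most similar profiles per gene among genes that reached 1 TPM in 3 libraries and averaged 5 TPM or more in their highest group; Flt3, Satb1, Cx3cr1, Cxcr2, Ctbp1 and genes that overlap the 8 were otherwise named after their values were seen. A few genes that this rule picks are not reported here, though list counts include them. Promoter windows came from RefSeq. Alternatives covered the pseudocount, the filter, scaling, the libraries in the fit, a replicate block and the omission of each library. Figures were drawn with matplotlib 3.10.9.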

Additional observations from a re-analysis of the deposited data

How the results depend on the processing

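Each difference of the 8 genes was recomputed under 13 alternatives per comparison. Of these values 286 kept their direction and side of the threshold, 21 kept the direction but lost the call, 4 gained a call and 1 changed sign: Eya1 between the WT groups was 0.06 in log2 and ranged from -0.028 (without AML-WT-c-kit+ replicate 3) to 0.16 with single libraries left out, never called. Of 455 values for the other named pathway genes, 441 were unchanged in this sense and 14 lost the call. The number of the 8 genes called between the WT groups was 5 and became 3 with no filter on low values, where more genes are tested, and 3 to 5 when single libraries were left out, the 3 arising without AML-WT-c-kit- replicate 1 or 2 or AML-WT-c-kit+ replicate 3. That number was 7 to 8 for labelled against AML-WT-c-kit+ and 6 to 8 for labelled against AML-WT-c-kit- with single libraries left out. Quantile normalization moved the median gene between the WT groups from -0.082 to 0.066. Whether equal replicate numbers pair the libraries was not settled. Deviations from the group means correlated between -0.0712 and 0.237 over genes for equal numbers and between -0.184 and 0.144 for unequal numbers. Between WT c-kit- and labelled libraries, r was 0.0451 to 0.0794 for equal numbers and -0.0523 to -0.00657 for unequal numbers. Between WT c-kit+ and labelled libraries, r was 0.0187 to 0.0968 for equal numbers and -0.096 to 0.0221 for unequal numbers. With the replicate number as a block, 5, 8 and 7 of the 8 genes were called in the 3 comparisons, as without it, and 21, 28 and 31 of the other pathway genes against 22, 25 and 30. The block changed the call of no member and, among the named pathway genes, only that of Eya3. With unknown depth, low values such as those of Zeb1 in the labelled libraries have an unknown counting error.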
